A study of Mus musculus with 6 samples.

Results

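Axon guidance molecules are the secreted and membrane-bound cues, and their receptors, that steer growing nerve fibres. Ephrins bind Eph receptor tyrosine kinases, semaphorins bind plexins, slits bind robos, and netrins bind DCC-type and Unc5 receptors, and most of these pairs act by turning the actin cytoskeleton of the receiving cell towards retraction or advance. The same families are used outside the nervous system, for boundaries between epithelial cells, for cell migration and for vessel growth. In the cornea, which is densely supplied by sensory axons of the trigeminal ganglion whose cell bodies lie outside the tissue, they can also be made by epithelial, stromal and immune cells.

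The genes described here are the protein-coding genes of the mouse annotation whose symbols name them as class 3 to 7 semaphorins, plexins, slits, robos, netrins, Unc5 receptors, ephrins or Eph receptors. They were 65 of the 55421 genes counted: 20 semaphorins, 9 plexins, 3 slits, 3 robos, 4 netrins, 4 Unc5 receptors, 8 ephrins and 14 Eph receptors. They were picked by symbol alone, not by their own values. RNA was sequenced from corneas of mice heterozygous for a mutation of Pax6 (mutant, 3 libraries) and of wildtype mice (3 libraries), all aged 20 weeks, and the series design calls the 3 of each genotype biological replicates. Pax6 encodes a transcription factor with a paired domain and a homeodomain, on which the eye and its corneal epithelium depend. The labels name neither the Pax6 allele nor the strain nor the sex of the animals, and the same numbering of replicates (in accession order, with no pairing) is used throughout.

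Pax6 itself had 7411, 7093 and 7914 read pairs in the mutant libraries, against 14970, 13141 and 14465 in the wildtype libraries, a log2 fold change of -0.98 ± 0.14 (SE, adjusted p = 0.0042, edgeR). Gene counts were 16858005 to 21846406 per library, of which the guidance genes took 0.402% to 0.408% in mutant and 0.366% to 0.445% in wildtype corneas. Wildtype replicate 1 stood apart from the other libraries on principal component 1, and mutant replicate 1 was the only library with Xist above background (18628 read pairs, and at most 12 in any other library). Sex was not a term in the fit, and its part in the results was not tested. All 6 markers of corneal epithelium were present in every library, at a summed 17276 to 23850 CPM (read counts scaled to a fixed library total) in mutant and 37279 to 51062 CPM in wildtype corneas, and 4 of the 6 fell. Marker sums of other cell types also moved with genotype. Keratocyte and stromal markers summed to 1213 to 5126 CPM in mutant and 373 to 609 CPM in wildtype corneas (5 of 10 rose), leukocyte markers to 222 to 274 and 48.9 to 58.8 CPM (6 of 10 rose), and mucosal keratins to 6096 to 7636 and 369 to 671 CPM (4 of 6 rose). Of 10 neuronal markers only 3 were high enough to test. Ret rose (log2 fold change 1.34, adjusted p = 0.0361), a call lost in both limma-voom fits and without any 1 library other than mutant replicate 2 (adjusted p between 0.0536 and 0.113), Nefl (-1.83) and Nefm (-0.47) did not pass, and Scn9a was at 0 in all 6 libraries. In whole-tissue RNA, fewer cells of a type and less RNA per cell cannot be told apart.

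Guidance genes changed in both directions. Of the 52 that passed the low-count filter, 6 rose in mutant corneas (Ephb2, Epha4, Sema3a, Sema3c, Plxnd1 and Slit3) and 4 fell (Efnb1, Efna3, Plxna2 and Sema4b), by the quasi-likelihood test of edgeR at a Benjamini-Hochberg adjusted p of 0.05 over all 15209 tested genes. That is 11.5% higher and 7.69% lower, beside 5.59% higher and 4.46% lower over all tested genes, or 19.2% beside 10.1% in either direction. The difference between these shares was not tested. The 3 mutant libraries lay wholly above or below the 3 wildtype libraries for 27 of the 52 genes (51.9%), beside 31.9% of all tested genes; 15 lay above (17.1% of all genes did) and 12 below (14.7% of all genes did). The median log2 fold change of the 52 was 0.19, beside 0.0095 for all tested genes. Of these 52, 8 passed the filter with all 3 mutant libraries but not all 3 wildtype libraries over its level. None of those 8 (Epha5, Ephb1, Plxnc1, Robo2, Sema3e, Sema4g, Sema6a and Sema6b) is among the genes called. Each of the 8 had a positive log2 fold change, from 0.41 (Sema4g) to 1.47 (Sema3e), and Ephb1 and Plxnc1 are among the 15 that lay above. High mutant values let these genes pass, so the median of the 52 and the count of 15 are not independent of the filter. The counts rest on single libraries: 3 genes rose without mutant replicate 1, without mutant replicate 2 or without wildtype replicate 3, and 10 rose without wildtype replicate 1. The number that fell was 2 without mutant replicate 2, 1 without wildtype replicate 3 and 0 without mutant replicate 3, where 8 had an unadjusted p under 0.05 (edgeR).

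**Figure D1:**
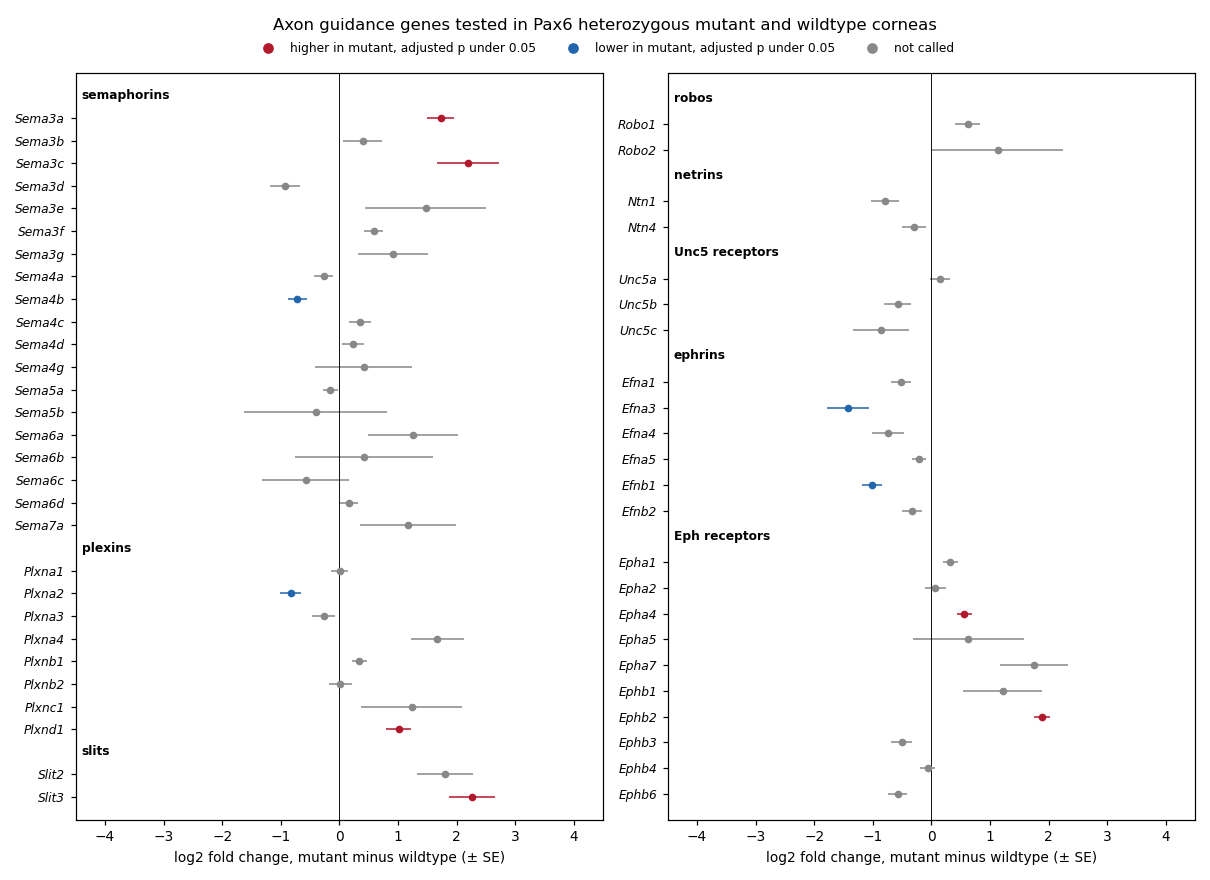
Log2 fold change (mutant minus wildtype, x axis) of the 52 tested guidance genes, by family; points are edgeR estimates and lines are ± 1 SE from 3 libraries per genotype. The 6 genes called higher lie right of 0 and the 4 called lower lie left of it, and all 6 ephrins lie left of 0.

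Levels are compared between genes as CPM per kb of exon. Plxnb2 was the most abundant guidance gene, at 155 ± 2.78 CPM per kb in mutant and 153 ± 41.8 in wildtype corneas (SD, n = 3 each), followed by Epha2, Sema3f and Sema4d. At 10 or more CPM per kb, averaged over all libraries, stood 19 of the 65 genes, 18 stood between 1 and 10, and 28 stood below 1. The neighbouring ranks Epha2, Sema3f, Sema4d, Ephb3, Efnb2 and Plxnb1 overlap in their library values, with means between 26.6 and 40.2 CPM per kb in mutant corneas and between 24.9 and 37.9 in wildtype corneas. The 13 genes that did not pass the filter were Efna2, Efnb3, Ntn3, Ntn5, Slit1, Robo3, Unc5d, Plxnb3, Sema4f, Epha3, Epha6, Epha8 and Epha10, with at most 35 read pairs in any library. Among these, Ntn3 had 25, 8 and 24 read pairs in mutant corneas and 0, 2 and 0 in wildtype corneas. Its groups do not overlap, and 4.46% of its exon bases are shared with the neighbouring genes Tbc1d24 and BC028777, so its count is uncertain. Only edgeR with no low-count filter called Ntn3 higher.

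The ephrins, the cell-bound ligands of Eph receptors, were all lower in mutant corneas by point estimate: each of the 6 tested ephrins had a negative log2 fold change, in the fit as reported and in all 16 alternatives run. Of the 6, 2 passed the test (Efnb1 and Efna3), 4 had an unadjusted p under 0.05 (23.8% of all tested genes did), and in 5 every mutant library lay below every wildtype library (14.7% of all tested genes). Without mutant replicate 3, 7 ephrins were tested, 0 passed and 2 had an unadjusted p under 0.05 (edgeR). Summed over the 8 ephrin genes, the level was 68.6, 66.7 and 63.1 CPM per kb in mutant corneas and 114, 96.0 and 88.3 CPM per kb in wildtype corneas. Mutant and wildtype libraries do not overlap. The sums are carried by Efnb2, Efnb1, Efna1 and Efna5.

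Efnb1 encodes ephrin-B1, a transmembrane ligand of EphB receptors that also signals into the cell that carries it (chrX:99136130-99148991, plus strand, GRCm38). It stood at 41.3, 51.0 and 43.1 CPM in mutant corneas, against 114, 78.2 and 81.5 CPM in wildtype corneas. All 3 mutant libraries lay below all 3 wildtype libraries, and wildtype replicate 1 was the highest. The mean was 45.1 ± 5.18 CPM in mutant and 91.2 ± 19.8 CPM in wildtype corneas (SD, n = 3 each), a log2 fold change of -1.02 ± 0.17 (SE, adjusted p = 0.0101, edgeR). The call was lost without mutant replicate 3, with an adjusted p of 0.0569, and held in the other 15 alternatives.

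Efna3 encodes ephrin-A3, a ligand held to the membrane by a lipid anchor (chr3:89313899-89322965, minus strand). It stood at 3.86, 9.99 and 5.18 CPM in mutant corneas, against 19.9, 16.4 and 14.6 CPM in wildtype corneas. There is no overlap of the groups, and mutant replicate 2 was the highest of the mutant libraries. Efna3 had a log2 fold change of -1.42 ± 0.36 (SE, adjusted p = 0.0442, edgeR). It was not called without mutant replicate 1, without mutant replicate 3 or without any 1 wildtype library, with adjusted p-values between 0.0638 and 0.173. Of its exon bases, 14.1% overlap Gm15998 on the other strand, and since the labels do not give the strand setting used in counting, its count is uncertain. Efna1, Efna3 and Efna4 are neighbours on chromosome 3, within 89271733 to 89338028, and the other two had log2 fold changes of -0.52 (Efna1, adjusted p = 0.102) and -0.74 (Efna4, adjusted p = 0.147), each with all mutant libraries below all wildtype libraries. Of Efna4's exon bases, 10.5% overlap another gene.

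Efnb2, the ephrin of highest level per kb and in general a ligand of EphB4 in vessels, stood at 204, 162 and 181 CPM in mutant corneas and 283, 216 and 191 CPM in wildtype corneas. The groups overlap, since mutant replicate 1 lay above wildtype replicate 3. Efnb2 had a log2 fold change of -0.33 ± 0.17 (SE, adjusted p = 0.283, edgeR). Efna5 had a log2 fold change of -0.21 (adjusted p = 0.358) with no overlap of the groups.

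The Eph receptors, which bind ephrins and signal as tyrosine kinases, went both ways. Of 14, 10 were tested, 2 rose (Ephb2 and Epha4) and 0 fell, although 2 of those below wildtype had an unadjusted p under 0.05 by edgeR and DESeq2 called both lower (Ephb3 and Ephb6) and 3 higher (Ephb2, Epha4 and Epha7). Their summed level overlapped between genotypes, at 142, 140 and 155 CPM per kb in mutant corneas and 165, 130 and 137 CPM per kb in wildtype corneas.

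Ephb2 encodes the EphB2 receptor, a partner of B-type ephrins (chr4:136647539-136835988, minus strand). It stood at 55.0, 53.0 and 53.7 CPM in mutant corneas, against 15.9, 13.2 and 14.4 CPM in wildtype corneas. The libraries of each genotype lay close together and far from those of the other, with the highest mutant library 1.04 times the lowest. The mean was 53.9 ± 1.0 CPM in mutant and 14.5 ± 1.36 CPM in wildtype corneas (SD, n = 3 each), which is 3.72-fold higher in mutant corneas, with a log2 fold change of 1.89 ± 0.14 (SE, adjusted p = 0.000572, edgeR). Among the guidance genes this was the smallest p, and Ephb2 was called in all 16 alternatives. Per kb of exon, Ephb2 stood at 0.365, 0.285 and 0.341 of the Efnb1 level in mutant corneas, and at 0.0381, 0.0461 and 0.0485 of it in wildtype corneas. This separation follows from that of each gene.

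Epha4 encodes a receptor that binds ephrins of both the A and the B type (chr1:77367185-77515088, minus strand). It stood at 218, 186 and 213 CPM in mutant corneas, against 156, 131 and 132 CPM in wildtype corneas. All mutant libraries lay above all wildtype libraries. The mean was 1.47-fold higher in mutant corneas, with a log2 fold change of 0.56 ± 0.13 (SE, adjusted p = 0.0298, edgeR). The call was lost without any 1 of mutant replicates 1, 2 and 3 or wildtype replicates 2 and 3, with adjusted p-values between 0.0592 and 0.129.

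Epha2, the Eph receptor of highest level per kb and a well-known receptor of epithelial cells, stood at 142, 201 and 214 CPM in mutant corneas and 200.7, 177 and 155 CPM in wildtype corneas. The groups overlap. The log2 fold change was 0.07 ± 0.18 (SE, adjusted p = 0.865, edgeR), and its sign turned without mutant replicate 3 (-0.05) and without wildtype replicate 3 (-0.04). Ephb6, which lacks kinase activity, stood at 46.1, 42.7 and 48.1 CPM in mutant corneas and 78.4, 53.3 and 72.1 CPM in wildtype corneas, with no overlap and a log2 fold change of -0.57 ± 0.16 (SE, adjusted p = 0.0619, edgeR), and passed in 5 of the 16 alternatives. Ephb3 had a log2 fold change of -0.51 (adjusted p = 0.137), Ephb4 of -0.06 (0.834), Epha1 of 0.33 (0.161), Epha7 of 1.75 (0.106), Ephb1 of 1.21 (0.323) and Epha5 of 0.63 (0.747).

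The promoters of the Eph receptors that rose, of the B ephrin that fell and of Slit3, the guidance gene with the largest log2 fold change, are shown because a transcription factor gene is the one mutated. They run from 250 bases before to 50 bases after the RefSeq start (build GRCm38.p6), 5′ to 3′ on the gene's strand. Capitals mark matches on either strand to the GC box GGGCGG or the CCAAT box CCAAT. Ephb2 is at chr4:136835963-136836262 (minus strand), Epha4 at chr1:77515039-77515338 (minus strand), Efnb1 at chrX:99135811-99136110 (plus strand) and Slit3 at chr11:35121206-35121505 (plus strand).
Ephb2: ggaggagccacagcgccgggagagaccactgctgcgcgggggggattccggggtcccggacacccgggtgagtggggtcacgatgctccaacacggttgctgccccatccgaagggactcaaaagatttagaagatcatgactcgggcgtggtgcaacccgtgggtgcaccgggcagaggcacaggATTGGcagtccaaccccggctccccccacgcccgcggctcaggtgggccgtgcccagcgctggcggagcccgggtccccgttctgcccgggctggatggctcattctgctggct
Epha4: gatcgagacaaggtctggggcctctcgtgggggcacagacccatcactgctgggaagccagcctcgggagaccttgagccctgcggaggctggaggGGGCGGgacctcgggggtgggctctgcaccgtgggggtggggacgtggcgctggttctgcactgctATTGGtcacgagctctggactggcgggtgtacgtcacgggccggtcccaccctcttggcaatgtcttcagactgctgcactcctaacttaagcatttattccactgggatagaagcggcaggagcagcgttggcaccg
Efnb1: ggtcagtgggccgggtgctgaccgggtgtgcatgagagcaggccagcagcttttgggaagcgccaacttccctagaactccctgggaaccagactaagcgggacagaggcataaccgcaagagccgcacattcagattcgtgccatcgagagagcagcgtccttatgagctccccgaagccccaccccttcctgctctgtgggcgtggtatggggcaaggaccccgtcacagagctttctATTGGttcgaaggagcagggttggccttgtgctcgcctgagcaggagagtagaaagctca
Slit3: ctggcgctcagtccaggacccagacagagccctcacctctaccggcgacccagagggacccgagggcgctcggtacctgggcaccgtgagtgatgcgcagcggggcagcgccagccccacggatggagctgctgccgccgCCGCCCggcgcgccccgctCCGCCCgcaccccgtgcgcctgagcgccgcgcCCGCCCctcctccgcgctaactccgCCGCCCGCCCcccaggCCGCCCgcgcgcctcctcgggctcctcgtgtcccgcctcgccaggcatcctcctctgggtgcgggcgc
The Ephb2 window holds 24 CG dinucleotides, that of Epha4 17, that of Efnb1 14 and that of Slit3 41, beside a median of 7 over 32851 RefSeq promoters of the same length.

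Motifs were searched on both strands in 72 promoter windows of 56 guidance genes. The core of a Pax6 paired-domain site, TTCACGC, was found in 0 of the 72 windows and in 1.26% of all promoters, and the paired homeodomain site, an inverted TAAT repeat with 3 bases between, in 0 of 72 and in 0.487% of all. GGGCGG was found in 70.8% of the guidance windows and 35.7% of all promoters, CCAAT in 27.8% and 37.4%, TGANTCA in 4.17% and 7.81%, and TATAAA in 2.78% and 13.6%. Of the 6 GC boxes in the Slit3 window, those that start at positions 217 and 221 overlap. The median number of CG dinucleotides was 19.5 in the guidance windows and 24.5 in the 12 windows of the 10 called genes. A match or its absence describes the letters of these windows and says nothing of binding.

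The semaphorins, ligands of plexins that mostly repel, had 19 of 20 members tested, of which 2 rose (Sema3a and Sema3c) and 1 fell (Sema4b). Both that rose are secreted class 3 semaphorins, which bind plexins together with neuropilins. The summed semaphorin level overlapped between genotypes, at 139, 126 and 115 CPM per kb in mutant corneas and 139, 99.4 and 110 CPM per kb in wildtype corneas.

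Sema3a encodes a repellent of sensory axons, which signals through neuropilin-1 and A-type plexins (chr5:13125414-13602565, plus strand). It stood at 17.9, 16.8 and 15.8 CPM in mutant corneas, against 4.20, 4.83 and 6.26 CPM in wildtype corneas. The lowest mutant library lay well above the highest wildtype library. The mean was 16.9 ± 1.05 CPM in mutant and 5.09 ± 1.06 CPM in wildtype corneas (SD, n = 3 each), 3.31-fold higher in mutant corneas, with a log2 fold change of 1.73 ± 0.23 (SE, adjusted p = 0.00365, edgeR). It was called in all 16 alternatives.

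Sema3c encodes a semaphorin known for guiding migrating neural crest cells and acting through plexin D1 (chr5:17574281-17730268, plus strand). It stood at 36.8, 17.1 and 9.14 CPM in mutant corneas, against 6.75, 3.97 and 3.00 CPM in wildtype corneas. Mutant and wildtype libraries were separate, but mutant replicate 1 was 4.03 times mutant replicate 3. Sema3c had a log2 fold change of 2.20 ± 0.53 (SE, adjusted p = 0.0363, edgeR). It was 1.52 without mutant replicate 1, where the call was lost (adjusted p = 0.119), and the call was also lost without mutant replicate 2, without wildtype replicate 2 or without wildtype replicate 3 (adjusted p between 0.0871 and 0.115) and in both limma-voom fits (0.0921 and, with sample quality weights, 0.0854). The stromal marker sum was 5126, 2180 and 1213 CPM in the same mutant libraries and 373, 609 and 479 CPM in the wildtype libraries. Sema3c and this sum had the same order in mutant corneas, though Ptgds and Chst5 within it did not. In wildtype corneas Sema3c was highest in replicate 1, where the stromal sum was lowest. The single markers differed there. Col1a1 (224, 138 and 164 CPM), Kera and Angptl7 were highest in replicate 1 among wildtype libraries. Ptgds (4.14, 170 and 125 CPM), Dcn, Fmod and Col3a1 were lowest there, and Lum, Col1a2 and Chst5 lay between. Summed vascular endothelial markers had the mutant order of Sema3c, at 103, 42.7 and 37.8 CPM. The part of these markers in the result was not tested.

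Sema4b encodes a transmembrane semaphorin (chr7:80186841-80226527, plus strand). It stood at 88.3, 94.2 and 85.1 CPM in mutant corneas, against 177, 116 and 148 CPM in wildtype corneas. All mutant libraries lay below all wildtype libraries. The mutant mean was 0.606 of the wildtype mean, with a log2 fold change of -0.72 ± 0.16 (SE, adjusted p = 0.0274, edgeR). The call was lost without any 1 of the mutant libraries or without wildtype replicate 3, with adjusted p-values between 0.062 and 0.113.

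Sema3f, which acts mainly through neuropilin-2, was the semaphorin of highest level per kb. It stood at 229, 203 and 196 CPM in mutant corneas and 174, 121 and 125 CPM in wildtype corneas. The groups do not overlap, but the log2 fold change of 0.58 ± 0.16 did not pass the test (SE, adjusted p = 0.0622, edgeR). It passed in 7 of the 16 alternatives: DESeq2 (adjusted p = 0.0137), both limma-voom fits, no composition factors, no low-count filter, without wildtype replicate 1 (log2 fold change 0.77, adjusted p = 0.00341) and without replicate 1 of both genotypes. Sema3d, another secreted semaphorin, stood at 18.9, 8.99 and 13.4 CPM in mutant corneas and 28.7, 25.2 and 24.7 CPM in wildtype corneas, with no overlap and a log2 fold change of -0.93 ± 0.26 (SE, adjusted p = 0.0631, edgeR). It passed in 6 of the 16 alternatives: DESeq2 (adjusted p = 0.0132), both limma-voom fits, no low-count filter, without mutant replicate 1 (0.0315) and without replicate 1 of both genotypes.

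Sema3d, Sema3a, Sema3e and Sema3c lie in this order on chromosome 5 between 12383385 and 17730268, with log2 fold changes of -0.93, 1.73, 1.47 (adjusted p = 0.454) and 2.20. Neighbours therefore had point estimates of opposite sign, and the Sema3e groups overlap. The other semaphorins that did not pass had log2 fold changes between -0.58 (Sema6c) and 1.26 (Sema6a). Of these, Sema4c had all mutant libraries above all wildtype libraries, and Sema4d and Sema4a, at 35.4 and 13.7 CPM per kb in mutant corneas and 30.1 and 16.4 in wildtype corneas, had log2 fold changes of 0.23 and -0.27.

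The plexins, the receptors of semaphorins, had 8 of 9 members tested, of which 1 rose (Plxnd1) and 1 fell (Plxna2). Plxnd1 encodes plexin D1, a receptor best known from vascular endothelium (chr6:115954811-115995005, minus strand). It stood at 26.5, 21.1 and 21.7 CPM in mutant corneas, against 9.19, 14.1 and 11.1 CPM in wildtype corneas. All mutant libraries lay above all wildtype libraries, and wildtype replicate 1 was the lowest. The mean was 2.01-fold higher in mutant corneas, with a log2 fold change of 1.01 ± 0.21 (SE, adjusted p = 0.022, edgeR). The call was lost without any 1 of the mutant libraries or without wildtype replicate 3 (adjusted p between 0.062 and 0.0855). The 7 vascular endothelial markers summed to 103, 42.7 and 37.8 CPM in mutant corneas and 0.738, 29.4 and 36.0 CPM in wildtype corneas. None of the 7 passed the test in the edgeR fit as reported, where 1 had an unadjusted p under 0.05. DESeq2 called 1 higher, as did edgeR without wildtype replicate 1. The part of these markers in the Plxnd1 result was not tested.

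Plxna2 encodes an A-type plexin that works with neuropilins as a receptor for class 3 semaphorins and also binds class 6 ones (chr1:194618218-194816869, plus strand). It stood at 49.8, 36.3 and 33.6 CPM in mutant corneas, against 62.7, 68.8 and 81.7 CPM in wildtype corneas. All mutant libraries lay below all wildtype libraries. The mutant mean was 0.562 of the wildtype mean, with a log2 fold change of -0.83 ± 0.18 (SE, adjusted p = 0.0253, edgeR). The call was lost without mutant replicate 2, mutant replicate 3, wildtype replicate 2 or wildtype replicate 3, with adjusted p-values between 0.066 and 0.106. Per kb of exon, Sema3a stood at 0.446, 0.573 and 0.584 of the Plxna2 level in mutant corneas and at 0.0829, 0.0869 and 0.0949 of it in wildtype corneas. This separation follows from that of each gene and is given for Plxna2 only, the A-type plexin that fell. The other A-type plexins, none called as reported, had log2 fold changes of 0.001 (Plxna1), -0.27 (Plxna3) and 1.67 (Plxna4). Per kb, Plxna4 stood at 1.72, 0.822 and 0.795 in mutant and 0.177, 0.390 and 0.478 in wildtype corneas. Sema3a lay above Plxna4 in mutant replicates 2 and 3 and wildtype replicate 1, and below it in the other libraries. Ratios to Plxna1 and Plxna3 were not computed. Ratios of Sema3c to Plxnd1 overlapped, at 1.42, 0.832 and 0.432 in mutant corneas and 0.751, 0.289 and 0.275 in wildtype corneas.

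Plxna4, a co-receptor for Sema3a in sensory neurons, stood at 24.3, 11.6 and 11.2 CPM in mutant corneas and 2.50, 5.51 and 6.74 CPM in wildtype corneas. The groups do not overlap, but the log2 fold change of 1.67 ± 0.45 did not pass the test (SE, adjusted p = 0.0531, edgeR). It passed in 2 alternatives, DESeq2 (adjusted p = 0.00281) and no low-count filter. Plxnb2, a receptor of class 4 semaphorins, stood at 1171, 1212 and 1203 CPM in mutant corneas and 1555, 996 and 996 CPM in wildtype corneas. The groups overlap, and the log2 fold change was 0.02 ± 0.19 (SE, adjusted p = 0.973, edgeR), with a sign that turned in 5 alternatives. Plxnb1, also a class 4 receptor, had all mutant libraries above all wildtype libraries and a log2 fold change of 0.34 (adjusted p = 0.14). Plxna1 (0.00), Plxna3 (-0.27) and Plxnc1 (1.24) did not pass either, with adjusted p-values of 0.998, 0.475 and 0.45.

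**Figure D2:**
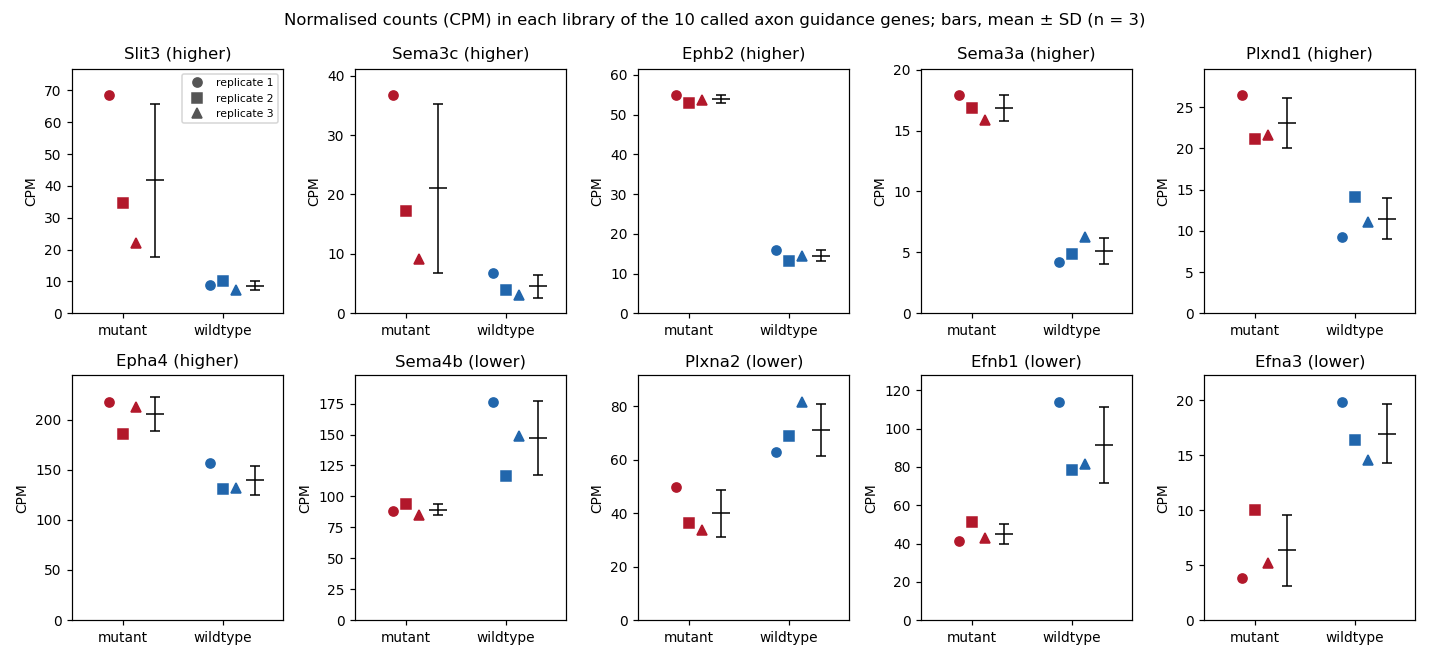
Normalised counts (CPM, y axis from 0) of the 10 called guidance genes in each library, mutant left of wildtype; symbols are replicates and bars are mean ± SD (n = 3 each). For Ephb2 and Sema3a the mutant libraries sit together, while Slit3 and Sema3c spread from mutant replicate 1 at the top (68.6 and 36.8 CPM) to mutant replicate 3 (21.9 and 9.14 CPM).

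The slits, large secreted ligands that repel axons and also limit vessel growth, were both higher by point estimate among the 2 of 3 tested, and 1 of them, Slit3, rose. Slit3 (chr11:35121224-35708507, plus strand) stood at 68.6, 34.6 and 21.9 CPM in mutant corneas, against 8.80, 10.1 and 7.22 CPM in wildtype corneas. The lowest mutant library lay above the highest wildtype library, and the mutant libraries spread 3.13-fold. The mean was 41.7 ± 24.2 CPM in mutant and 8.71 ± 1.44 CPM in wildtype corneas (SD, n = 3 each), 4.79-fold higher in mutant corneas, with a log2 fold change of 2.26 ± 0.40 (SE, adjusted p = 0.0108, edgeR). It was called in all 16 alternatives, and its log2 fold change was 1.70 without mutant replicate 1. The order of the mutant libraries was that of the stromal sum given above. Mutant replicate 1 stood at 4.23 times mutant replicate 3 in that sum and 3.13 times in Slit3, beside 1.02 times in Ephb2 and 1.13 times in Sema3a. The vascular endothelial markers had this mutant order too, and the part of either marker list in the result was not tested.

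Slit2 stood at 34.9, 38.5 and 58.3 CPM in mutant corneas and 4.03, 17.1 and 16.7 CPM in wildtype corneas. The groups do not overlap, and wildtype replicate 1 was the lowest. The log2 fold change was 1.80 ± 0.48 (SE, adjusted p = 0.0534, edgeR), and it passed in 6 of the 16 alternatives: DESeq2, both limma-voom fits, no low-count filter, without wildtype replicate 1 (log2 fold change 1.38, adjusted p = 0.00811) and without replicate 1 of both genotypes. Unlike Slit3, it was highest in mutant replicate 3.

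The robos, the receptors of slits, had 2 of 3 members tested, and neither passed in the edgeR fit as reported or in DESeq2. Robo1 was called higher by edgeR with no low-count filter (adjusted p = 0.0314), the only alternative that called it. Robo1, the more abundant, stood at 39.6, 23.2 and 31.8 CPM in mutant corneas and 18.04, 21.5 and 22.1 CPM in wildtype corneas. Robo1 libraries of the genotypes were separate, though mutant replicate 2 and wildtype replicate 3 lay close. The log2 fold change was 0.62 ± 0.21 (SE, unadjusted p = 0.0196, adjusted p = 0.117, edgeR). Robo2, at 0 counts in wildtype replicate 1, had a log2 fold change of 1.13 ± 1.11 (SE, adjusted p = 0.606, edgeR). Per kb of exon, Slit3 stood at 4.72, 4.06 and 1.87 times the Robo1 level in mutant corneas and at 1.33, 1.28 and 0.887 times in wildtype corneas.

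**Figure D3:**
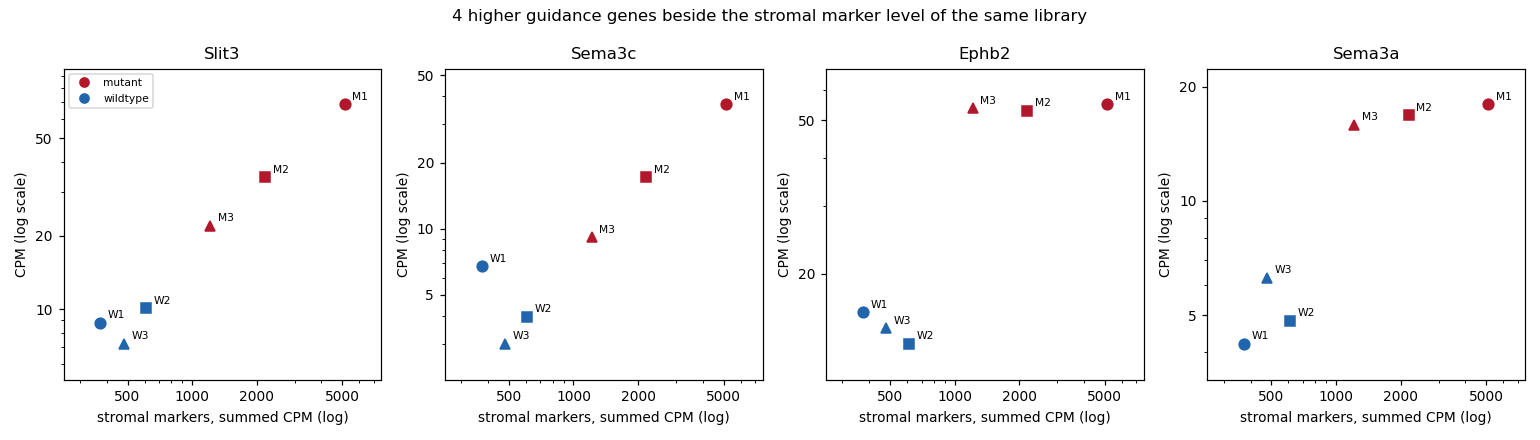
CPM of Slit3, Sema3c, Ephb2 and Sema3a (y axis, log scale) against the summed CPM of 10 stromal markers in the same library (x axis, log scale); red points are the 3 mutant and blue points the 3 wildtype libraries (M1 to M3 and W1 to W3, by replicate). Slit3 and Sema3c follow the order of the stromal sum among mutant libraries over a 3.13-fold and 4.03-fold range, while Ephb2 and Sema3a are nearly level across them. Among wildtype libraries Sema3c is highest in W1, where the stromal sum is lowest, though the stromal markers Col1a1, Kera and Angptl7 are highest in W1.

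Of the netrins, secreted cues that attract or repel according to the receptor, 2 of 4 were tested and neither passed in the edgeR fit as reported. DESeq2 and edgeR with no low-count filter called Ntn1 lower. Ntn1 stood at 49.0, 63.2 and 46.3 CPM in mutant corneas and 128, 76.6 and 69.3 CPM in wildtype corneas. There is no overlap of the groups, and wildtype replicate 1 was far above the other wildtype libraries. The log2 fold change was -0.79 ± 0.24 (SE, unadjusted p = 0.0118, adjusted p = 0.0848, edgeR). Ntn4, a netrin of basement membranes and the one of highest level per kb, stood at 53.9, 35.2 and 36.2 CPM in mutant corneas and 41.3, 53.9 and 58.0 CPM in wildtype corneas. The groups overlap, with a log2 fold change of -0.29 ± 0.21 (SE, adjusted p = 0.459, edgeR). Without replicate 1 of both genotypes it was -0.66 and called lower (adjusted p = 0.0196, edgeR), the only alternative that called it.

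Of the Unc5 receptors, which mediate repulsion by netrins, 3 of 4 were tested and none passed by edgeR or DESeq2. Unc5a, the one of highest level per kb, stood at 104, 114 and 92.3 CPM in mutant corneas and 117, 84.7 and 79.5 CPM in wildtype corneas. The groups overlap, with a log2 fold change of 0.14 ± 0.17 (SE, adjusted p = 0.679, edgeR). Unc5b had all mutant libraries below all wildtype libraries, with a log2 fold change of -0.58 (unadjusted p = 0.0358, adjusted p = 0.171), and Unc5c had -0.86 (adjusted p = 0.328). Of the netrin receptors outside this family, Dcc was too low to test, and neogenin (Neo1) had a log2 fold change of -0.14 (adjusted p = 0.55).

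**Figure D4:**
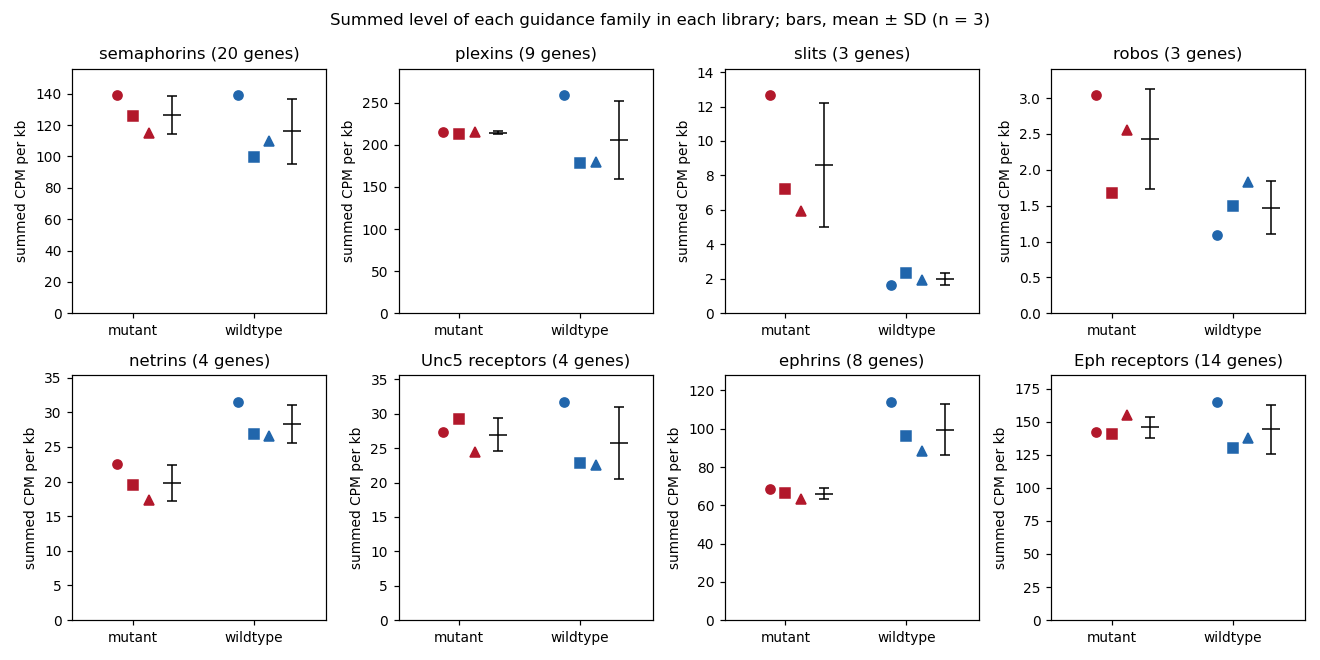
Summed level of each family (CPM per kb of exon, y axis from 0) in each library, mutant left of wildtype; circles, squares and triangles are replicates 1, 2 and 3 and bars are mean ± SD (n = 3 each). The mutant libraries lie wholly below the wildtype libraries for ephrins and netrins and wholly above them for slits, while semaphorins, plexins, robos, Unc5 receptors and Eph receptors overlap.

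The 4 guidance genes that fell did so beside the corneal epithelial markers given above, of which Krt12, Tkt, Upk1b and Slurp1 fell, and whose part in these results was not tested. The summed markers ran from 17276 to 23850 CPM in mutant corneas and from 37279 to 51062 CPM in wildtype corneas, with wildtype replicate 1 the highest. Efnb1, Efna3 and Sema4b were likewise highest in wildtype replicate 1, whereas Plxna2 was lowest there among wildtype libraries.

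Guidance genes outside the 8 families changed in part too. Of 70 listed genes, 61 were tested, 8 rose and 6 fell, which is 13.1% and 9.84% beside the same 5.59% and 4.46% of all genes. With 1 library left out, the number that rose was 3 without mutant replicate 1, mutant replicate 3 or wildtype replicate 2, 5 without mutant replicate 2 or wildtype replicate 3, and 13 without wildtype replicate 1, and the number that fell was 2 without mutant replicate 3. Among the genes named here, Chl1, Flrt2 and Fes were called whichever single library was left out. Of 12 co-receptors, 9 were tested and 1 passed: Chl1, a cell adhesion molecule that works with neuropilin-1 in Sema3a signalling, fell with a log2 fold change of -1.64 ± 0.18 (SE, adjusted p = 0.00145, edgeR). Chl1 stood at 62.1, 88.1 and 58.1 CPM in mutant corneas and 199, 221 and 227 CPM in wildtype corneas, with no overlap. Nrp1 and Nrp2, the neuropilins, had log2 fold changes of 1.09 (adjusted p = 0.266) and 0.99 (adjusted p = 0.165), with all mutant libraries above all wildtype libraries and wildtype replicate 1 the lowest.

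Of 14 other ligands and their receptors, 12 were tested and 2 rose. Flrt2, a membrane protein that binds Unc5 receptors and repels, stood at 87.3, 55.0 and 92.3 CPM in mutant corneas and 9.76, 17.5 and 13.8 CPM in wildtype corneas. The groups do not overlap, and the log2 fold change was 2.52 ± 0.27 (SE, adjusted p = 0.00151, edgeR). Rgmb, a ligand of the netrin receptor neogenin, had a log2 fold change of 0.62 ± 0.13 (SE, adjusted p = 0.0191, edgeR), a call lost without mutant replicate 2, mutant replicate 3, wildtype replicate 2 or wildtype replicate 3 (adjusted p between 0.0517 and 0.0985).

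Of 24 effectors, 22 were tested, 4 rose and 3 fell. Fes, a kinase that acts in semaphorin signalling, stood at 26.0, 22.1 and 23.9 CPM in mutant corneas and 6.70, 3.75 and 3.05 CPM in wildtype corneas, a log2 fold change of 2.41 ± 0.31 (SE, adjusted p = 0.00282, edgeR). Ablim3, an actin-binding protein, had a log2 fold change of 2.83 (adjusted p = 0.0111). The remaining pair that rose, named only once their values were known, were Enah (adjusted p = 0.0333) and Cfl1 (adjusted p = 0.0431), which extend and sever actin filaments. Enah was not called without any 1 of the mutant libraries or without wildtype replicate 2 (adjusted p between 0.0994 and 0.129), and Cfl1 not without any 1 of the 6 libraries (adjusted p between 0.0526 and 0.207) or with no composition factors (0.0529) or mitochondrial and structural RNA genes removed (0.0518). The kinases Limk1 (-0.80, adjusted p = 0.0455) and Limk2 (-0.70, 0.009), which act on cofilin, and Pak1 (-1.25, 0.013), which acts on the LIM kinases, all fell. Limk1 was not called without any 1 of the 6 libraries (adjusted p between 0.0518 and 0.162), Limk2 and Pak1 were not called without mutant replicate 3 (0.0504 and 0.0538), and Ablim3 was not called without mutant replicate 1 (0.0513). The exons of Cfl1 overlap Snx32 on the other strand, so its count is uncertain.

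**Figure D5:**
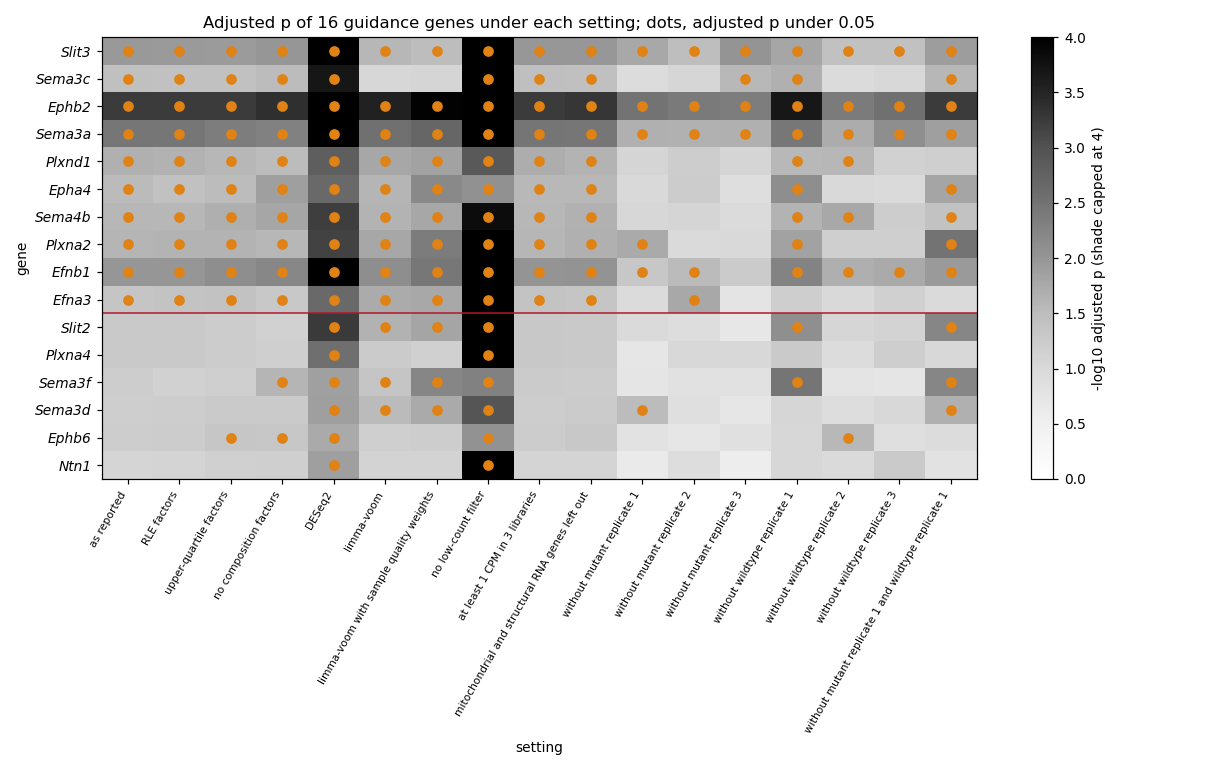
Adjusted p of the 10 called guidance genes (above the line) and 6 that missed the threshold (below it), one column per setting; darker means a smaller adjusted p (scale −log10, shade capped at 4) and a dot marks an adjusted p under 0.05. Ephb2, Sema3a and Slit3 have a dot in every column, and Efnb1 in every column except that without mutant replicate 3.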

How the data were processed

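RNA was measured in 6 libraries of mouse cornea. Per the labels' protocols, total RNA was turned into stranded low-input libraries and read from both ends. The submitters' processing notes name build GRCm38 and the tools Trim Galore, HISAT2, SAMtools, HTSeq and edgeR. Their versions and settings, and whether counting used strand, are not given in the sources used. The deposited values are whole-number counts of read pairs for each Ensembl gene, which the authors did not normalize. The 5 summary lines of each file entered no library size or test (30.1% of their sum with the genes was not aligned, 16.3% in no feature, 3.50% not unique, 2.75% of low quality and 0.679% ambiguous).

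Symbols, exons and positions came from GENCODE M21, and 55240 of the 55421 IDs matched. Low genes were removed with filterByExpr (at least 10 counts, total at least 15), libraries were scaled by TMM, and genotypes were compared with the quasi-likelihood test of edgeR 4.0.16 in R 4.3.3, with genotype as the only term and Benjamini-Hochberg adjustment over all 15209 tested genes at 0.05. Values are CPM, counts over the TMM-scaled library total, and a positive log2 fold change means higher in mutant. Gene counts were 16858005 to 21846406 per library, so that a count of 0 over a group allows 3 counts, or 0.0530 CPM in mutant and 0.0556 CPM in wildtype corneas (counting error only). Chi-square per degree of freedom between 2 libraries of 1 genotype was 17.8 to 53.9, above sampling noise, and each library was counted as 1 replicate. The series design calls the libraries biological replicates without naming animals, and the p-values measure the spread between libraries.

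The guidance genes and all lists were chosen with earlier results of these data known, and no test over a list was made. Full values are given for called genes and for the gene of highest level per kb in each family, and, after their values were seen, for genes with an adjusted p under 0.1. Sublists of other guidance genes contribute up to 4 called genes by smallest p and those against the majority. One sublist is counted in the total of these genes and is not reported here. The fits were repeated with other composition factors (RLE, upper-quartile, none), with DESeq2 1.42.0 and limma-voom (limma 3.58.1, also weighting samples by quality), with no filter on low counts or one of 1 CPM in 3 libraries, with mitochondrial and structural RNA genes removed, with each library left out, replicate 1 of both genotypes left out, and an adjusted p of 0.01. Scripts were tested on simulated data.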

Additional observations from a re-analysis of the deposited data

How the results depend on the processing

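Of the 10 called guidance genes, Ephb2, Sema3a and Slit3 were called in all 16 alternatives, Efnb1 in 15, Plxna2 and Sema4b in 12, Epha4 and Plxnd1 in 11, and Efna3 and Sema3c in 10, and none of the 10 changed direction in any of them. The 16 do not include the adjusted p of 0.01, which only Ephb2 and Sema3a passed. Slit3 (adjusted p = 0.0108, edgeR) and Efnb1 (0.0101) missed it narrowly. The number of guidance genes that rose was 10 with DESeq2, 13 with no low-count filter, 2 at an adjusted p of 0.01 and 3 to 10 with 1 library (or replicate 1 of both genotypes) left out. The number that fell was 8 with DESeq2, 8 with no filter, 0 at 0.01 (11 had an unadjusted p under 0.05 in edgeR) and 0 to 5 with libraries left out. Their median log2 fold change was 0.29 with limma-voom, 0.24 with sample quality weights, 0.14 with no filter and 0.075 to 0.29 with libraries left out. Of the other guidance genes, 15 rose with no filter, 2 at 0.01 and 3 to 13 with libraries left out, and 3 fell at 0.01 and 2 to 7 with libraries left out. Of all genes, 1325 rose with DESeq2, 1588 with no filter, 307 at 0.01 and 340 to 1227 with libraries left out, and 1033, 1137, 261 and 271 to 847 fell. The log2 fold change of Plxnb2 turned to -0.000717 with RLE factors, -0.0169 with upper-quartile factors and -0.000714 with DESeq2, and ran from -0.117 to 0.263 with libraries left out, where that of Epha2 ran from -0.0529 to 0.310. Without a filter, genes of very low count enter and the number tested is 28717; the cause of the other shifts was not tested. No paired analysis was possible because the labels give the genotypes no shared replicate numbers. Depth limits the genes under 1 CPM per kb, 15 of which were tested.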

Other observations

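Wildtype replicate 1 was the lowest of the 6 libraries for a group of guidance genes of several families, chosen here after their values were seen. Slit2, Plxna4, Plxnc1, Robo2, Sema6a, Sema7a, Epha5 and Epha7 stood there at 4.03, 2.50, 0.113, 0, 0.454, 0.794, 0.113 and 1.19 CPM. Their lowest values in the other wildtype libraries were 16.7, 5.51, 3.07, 3.24, 3.92, 1.19, 3.86 and 1.93 CPM in the same order of genes. The summed markers of 7 cell types were lowest in the same library. Melanocyte markers summed to 235 to 413 CPM in mutant corneas and 9.82, 305 and 187 CPM in wildtype corneas. Smooth and skeletal muscle markers summed to 70.1 to 194 CPM in mutant corneas and 8.23, 80.7 and 86.4 CPM in wildtype corneas. The smooth muscle genes Myh11 and Acta2 made up most of this sum in every library. The skeletal muscle genes Acta1, Myh1 and Ckm had at most 1 read pair in any mutant library and 0 in wildtype replicate 1. They had 8, 25 and 0 read pairs in wildtype replicate 2 and 117, 133 and 41 in wildtype replicate 3. Corneal endothelial markers summed to 222 to 318 CPM in mutant corneas and 60.1, 187 and 84.4 CPM in wildtype corneas. Neuronal markers summed to 14.6 to 29.8 CPM in mutant corneas and 6.01, 10.1 and 63.0 CPM in wildtype corneas. Ret alone made up most of this sum in every library except wildtype replicate 3. It stood at 25.5, 11.7 and 14.1 CPM in mutant corneas and 5.67, 7.10 and 7.38 CPM in wildtype corneas. In wildtype replicate 3 Snap25 (29.7 CPM) and Nefl (11.9 CPM) were the largest parts, and both had lower means in mutant corneas, opposite to Ret. Vascular, stromal and mucosal markers stood there at a summed 0.738, 373 and 369 CPM. The stromal markers Col1a1, Kera and Angptl7 were nevertheless highest in wildtype replicate 1 among wildtype libraries. The part of these markers in the levels of the guidance genes was not tested.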
